A study of Mus musculus with 6 samples.

Results

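The Wnt genes measured here are 49 genes of the Wnt pathway, out of 55573 genes listed for inguinal fat, a white adipose depot under the skin of the mouse. They were chosen by symbol, and each of the 49 symbols matched a single row of the deposited values for the mutant mice and for the Wt mice. By role they comprise 10 ligands, 12 receptors, 13 genes of the beta-catenin pathway, 7 secreted antagonists, and 7 genes of the R-spondin axis and of feedback inhibition. RNA-seq was performed on inguinal fat of 3 mutant and 3 Wt male mice of the C57BL/6NTac strain, 3 months of age, untreated and on chow diet, with 1 library from each mouse. The mutant mice carried the K283Q and K288R substitutions of thyroid hormone receptor alpha on both alleles and in every tissue, which remove sites where the receptor is conjugated to the small ubiquitin-like modifier SUMO. The comparison of the genotypes asks which Wnt genes differ in fat when the receptor cannot be sumoylated at these sites. The Wt mice were bred in the same house on the same background. Because the mutation was global, these data do not say in which cell type or tissue a difference arose.

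Wnt proteins are secreted lipid-modified ligands that bind Frizzled receptors together with the co-receptors LRP5 and LRP6. In the canonical branch, Dishevelled proteins relay the signal and the destruction complex of APC, Axin and GSK3 stops marking beta-catenin for degradation, so that beta-catenin reaches the nucleus and acts with TCF and LEF factors. R-spondins increase the response by removing the ubiquitin ligases ZNRF3 and RNF43, which otherwise clear Frizzled receptors from the cell surface. In adipose tissue, canonical Wnt signalling is known for holding preadipocytes in an undifferentiated state.

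Levels are given as normalized CPM, the reads on a gene relative to all reads of the library, scaled by the authors with a factor for each library. The reads recovered from these values ranged from 19607423 to 24228381 per mouse, and 3 reads corresponded to 0.126 to 0.157 normalized CPM, a floor for counting error only. The targeted gene Thra was at 117 to 147 normalized CPM in the Wt mice and at 137 to 170 in mutant mice, which gave a log2 fold change of 0.19 ± 0.13 (SE, adjusted p = 0.404, limma), and a substitution is not visible in a level. Adipocyte markers summed to 11181 to 18964 normalized CPM in every mouse, and skeletal muscle markers, which are foreign to fat, to 9015 to 19899. Mutant mouse 1 stood apart in its lymphocyte markers, which were near 0 (B cell markers summed to 2.36 normalized CPM there and to 258 to 553 in the other mice). Fold changes were estimated by limma on log2(normalized CPM + 0.5), a scale that understates the change of genes with low values, with Benjamini-Hochberg adjustment over all 16868 genes that passed the filter on low values, among them all 49 Wnt genes. No source says that the mice of a genotype came from separate litters or cages, so p-values measure the spread between these mice.

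Of the 49 Wnt genes, 5 (10.2%) passed the FDR of 0.05, all of them higher in mutant mice, namely the ligand Wnt2b, the receptor Fzd5, the signal transducer Dvl2, the agonist Rspo1 and the feedback inhibitor Nkd1. Of all genes tested, 8.11% passed in either direction and 5.50% passed as higher in mutant mice. Many of the genes that were higher overlapped, on the other strand, a gene at least 10 times as abundant. By means over all 6 mice, none of the 49 Wnt genes had such a partner, and among the genes without one, 2.25% were higher. Dvl2 had a partner 7.17 times as abundant by these means, and at least 10 times as abundant in the Wt mice alone. The genotypes did not overlap for 15 of the 49 genes (30.6%), which is the share found over all genes tested (30.6%). Of these 15 genes, 9 (18.4% of the 49) were higher in mutant mice, beside 14.9% of all genes tested. The median log2 fold change of the 49 genes was 0.04, and that of all genes tested was -0.05. Positive log2 fold changes were found for 26 genes and negative ones for 23.

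**Figure D1:**
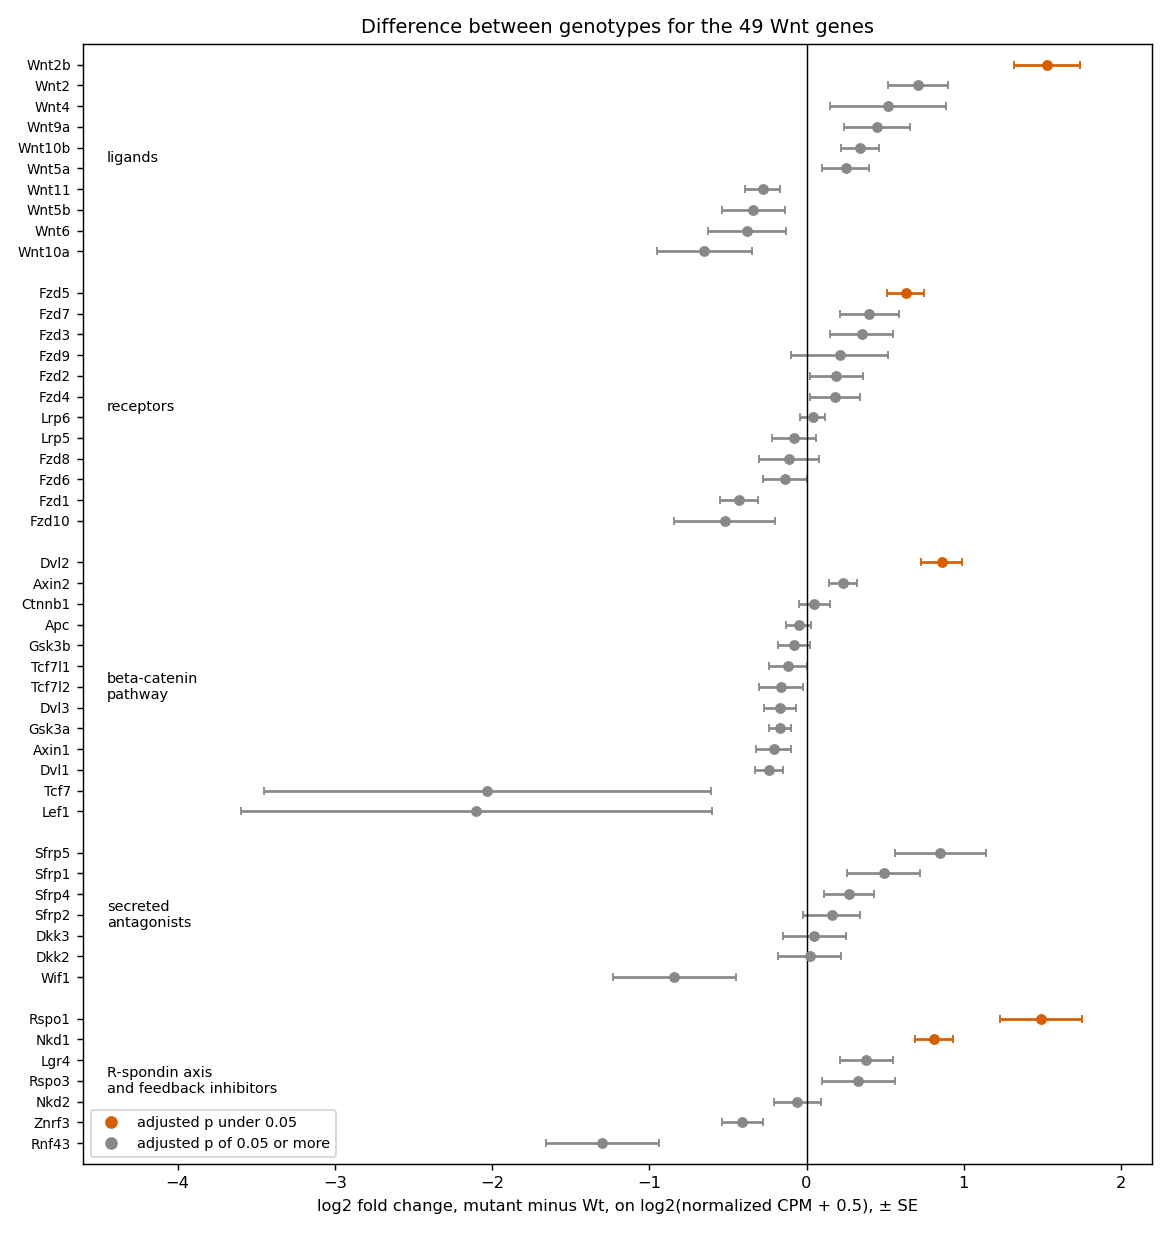
Log2 fold change between the genotypes (mutant minus Wt, on log2(normalized CPM + 0.5)) of each of the 49 Wnt genes, with its SE, grouped by role. The 5 genes in orange passed the FDR of 0.05, all to the right of 0, whereas the points farthest to the left, Tcf7 and Lef1, had SEs of 1.42 and 1.5.

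The promoters of the genes that rose are shown because the mutated protein is a transcription factor, and a reader may look there for its site. RefSeq windows for GRCm38.p6 were found for 34 of the 49 genes. Each run below holds the 250 bases before a RefSeq start, read 5′ to 3′ on the strand of the gene. Capitals mark the GC box GGGCGG, the site of SP1, on either strand and, in Dvl2 alone, also the AP1 site TGANTCA.

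Rspo1 (chr4:124986180-124986429, plus strand): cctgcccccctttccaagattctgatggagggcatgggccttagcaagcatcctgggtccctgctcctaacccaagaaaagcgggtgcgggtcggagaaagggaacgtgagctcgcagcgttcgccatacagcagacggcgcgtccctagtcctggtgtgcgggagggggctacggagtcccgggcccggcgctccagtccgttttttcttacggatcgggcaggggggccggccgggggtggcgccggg
Nkd1 (chr8:88527383-88527632, plus strand): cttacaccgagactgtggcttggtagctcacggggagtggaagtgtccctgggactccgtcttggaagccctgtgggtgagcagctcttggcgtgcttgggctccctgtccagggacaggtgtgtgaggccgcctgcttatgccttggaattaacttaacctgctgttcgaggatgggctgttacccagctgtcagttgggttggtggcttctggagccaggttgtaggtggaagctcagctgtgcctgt
Fzd5 (chr1:64737751-64738000, minus strand): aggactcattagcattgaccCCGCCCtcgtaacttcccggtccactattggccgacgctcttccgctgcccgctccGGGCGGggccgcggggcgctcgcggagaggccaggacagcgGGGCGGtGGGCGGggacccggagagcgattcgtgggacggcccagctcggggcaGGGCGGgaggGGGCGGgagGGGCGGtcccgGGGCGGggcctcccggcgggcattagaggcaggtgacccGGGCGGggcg
Dvl2 (chr11:70000342-70000591, plus strand): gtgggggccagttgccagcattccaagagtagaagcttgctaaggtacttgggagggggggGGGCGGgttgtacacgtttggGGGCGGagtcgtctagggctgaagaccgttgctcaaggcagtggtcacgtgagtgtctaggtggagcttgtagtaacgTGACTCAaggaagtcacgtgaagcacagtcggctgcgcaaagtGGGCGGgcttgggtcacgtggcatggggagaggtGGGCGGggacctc

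The window of Fzd5 held 9 GC boxes, that of Dvl2 held 4 and that of Wnt2b held 3, whereas those of Rspo1 and Nkd1 held 0. The window of Nkd1 begins at 88527383, inside the gene, whose annotated start is at 88521354. The bases before that annotated start of Nkd1 were not searched. The letters of Wnt2b are not printed, since 212 of its 250 bases lie in an annotated exon. Neither the thyroid hormone response element half-site AGGTCA, nor the cyclic AMP response element TGACGTCA, nor the TCF/LEF site CTTTGAT was found on either strand in any of the 5 windows. Over all 32851 windows of this length, 14.0% held AGGTCA, 1.55% held TGACGTCA, 3.21% held CTTTGAT, 6.75% held TGANTCA and 32.7% held GGGCGG. Of the 44 windows of Wnt genes, 30 (68.2%) held GGGCGG. Matches of GGGCGG depend on base content, and these shares were not adjusted for it. The GC content was 80.8% for Wnt2b, 76.4% for Fzd5, 66.8% for Rspo1, 60.8% for Dvl2 and 58.4% for Nkd1. Its median over all windows was 52.4%. These are matches of letters in a short window and were not compared with any measurement of binding.

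Among the 10 ligands, Wnt2b, a canonical ligand known from limb, lung and gut development, had the largest change. Wnt2b (chr3:104945272-104961921, minus strand, GRCm38) was at 0.587, 0.486 and 0.799 normalized CPM in the Wt mice 1, 2 and 3, on 14, 10 and 19 reads, and at 2.93, 2.06 and 3.28 in mutant mice 1, 2 and 3, on 56, 46 and 70 reads. The lowest mutant mouse was thus above the highest Wt mouse, although the levels were low in both genotypes. Means were 0.624 ± 0.160 (SD, n = 3) in Wt and 2.76 ± 0.625 (SD, n = 3) in mutant mice, a ratio of 4.42. This was a log2 fold change of 1.53 ± 0.21 (SE, adjusted p = 0.00865, limma). It passed the FDR with any 1 of the 6 mice left out, with adjusted p of 0.0198 to 0.0478 and log2 fold changes of 1.41 to 1.69.

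Wnt2, the paralog of Wnt2b, was at 4.06, 3.74 and 3.91 normalized CPM in the Wt mice and at 7.49, 7.94 and 5.10 in mutant mice. The 3 Wt mice lay close together and all 3 mutant mice lay above them. The log2 fold change of 0.71 ± 0.19 (SE) did not pass the FDR (adjusted p = 0.0718, limma), although without mutant mouse 3, the lowest of the mutant mice, it did (0.90, adjusted p = 0.0364). Per kilobase of exon, where levels of different genes can be compared, Wnt5a and Wnt10b were the most abundant ligands. Wnt5a, a ligand of mainly non-canonical signalling, was at 38.6, 38.4 and 29.4 normalized CPM in the Wt mice and at 49.1, 40.4 and 37.4 in mutant mice, with overlapping genotypes (adjusted p = 0.354, limma). Wnt10b, the canonical ligand best known for blocking fat cell formation, was at 10.5, 10.6 and 9.13 normalized CPM in the Wt mice and at 14.2, 12.8 and 11.7 in mutant mice. Every mutant mouse was above every Wt mouse, but the log2 fold change of 0.34 ± 0.12 (SE) did not pass the FDR (adjusted p = 0.152, limma).

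The other 6 ligands did not pass the FDR. Wnt4 and Wnt9a had log2 fold changes of 0.52 ± 0.37 and 0.45 ± 0.21 (SE), and Wnt5b, Wnt6 and Wnt10a of -0.34 ± 0.20, -0.38 ± 0.25 and -0.65 ± 0.30, with overlapping genotypes in each case. Counts were small for Wnt10a, with 2 reads in mutant mouse 1 and 8 in mutant mouse 3, and for Wnt6, with 9 reads in mutant mouse 1. Wnt11 was at 8.56 to 9.55 normalized CPM in the Wt mice and at 7.13 to 7.45 in mutant mice, without overlap (adjusted p = 0.182, limma). Per kilobase of exon, Wnt2b was the ninth of the 10 ligands, at 0.149 in Wt and 0.657 in mutant mice, beside 4.53 and 5.41 for Wnt5a. Even in mutant mice, Wnt2b therefore stayed below Wnt5a, Wnt10b, Wnt2, Wnt9a, Wnt11 and Wnt4 on this scale.

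**Figure D2:**
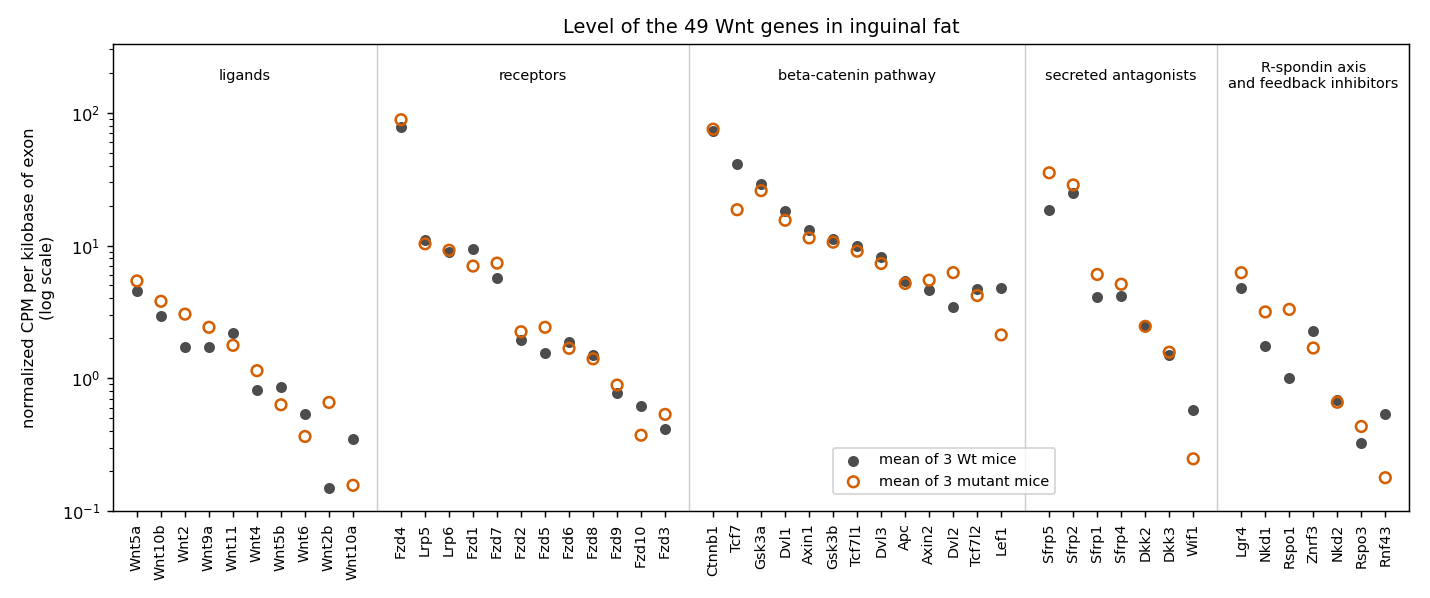
Mean level of each of the 49 Wnt genes in 3 Wt mice (filled points) and 3 mutant mice (open points), in normalized CPM per kilobase of exon on a log scale, ordered within each role from high to low. Fzd4 and Ctnnb1 head their groups at 83.6 and 73.9 over all mice, and no ligand exceeds 4.97 over all mice.

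Wnt2b, Rspo1 and the antagonist Frzb, described below, shared their direction with markers of mesothelium, the lining cell layer of body cavities and of visceral fat. Of 8 mesothelial markers, 7 passed the FDR and all 7 were higher in mutant mice, and these 7 summed to 5.49, 5.59 and 8.58 normalized CPM in the Wt mice and to 76.8, 38.8 and 52.3 in mutant mice. The remaining marker, Krt19, which other epithelia also express, was highest in Wt mouse 1, at 28.5 normalized CPM, and with it the 8 markers summed to 8.32 to 34 normalized CPM in the Wt mice and to 42.8 to 85.7 in mutant mice. Msln, encoding mesothelin, was at 0.168, 0.146 and 0.715 normalized CPM in the Wt mice and at 12.6, 6.28 and 7.91 in mutant mice. Upk3b, a uroplakin of mesothelial cells, was at 0.0838, 0 and 1.09 in Wt mice and at 27.7, 11.4 and 16.6 in mutant mice, and a value of 0 in Wt mouse 2 allows up to 0.146. Together with Upk1b and the gene Wt1, these markers had 0 to 4 reads in Wt mouse 1 and Wt mouse 2. The part of mesothelial cells in the levels of Wnt2b, Rspo1 and Frzb was not tested. In tissue measured in bulk, more cells of a type and more RNA per cell cannot be told apart, nor can fewer cells and less RNA.

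**Figure D3:**
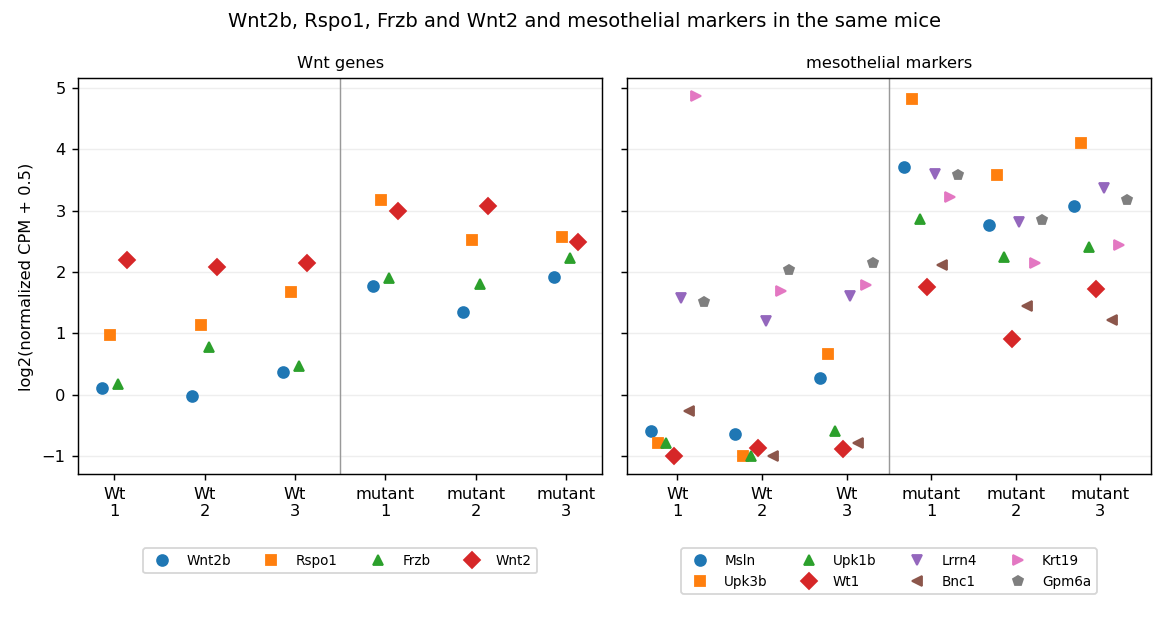
Levels in the same 6 mice of Wnt2b, Rspo1, Frzb and Wnt2 (left) and of 8 mesothelial markers (right), as log2(normalized CPM + 0.5). Each marker but Krt19 lies higher in all 3 mutant mice than in any Wt mouse, as do the 4 genes on the left.

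Of the 12 receptors, Fzd5 alone passed the FDR. Fzd5 (chr1:64730558-64737751, minus strand), a Frizzled receptor for canonical and non-canonical ligands, was at 11.4, 10.7 and 9.76 normalized CPM in the Wt mice and at 18.7, 16.1 and 15.4 in mutant mice. The genotypes were clearly apart, with each mutant mouse above all Wt mice. Means were 10.6 ± 0.804 (SD, n = 3) in Wt and 16.8 ± 1.73 (SD, n = 3) in mutant mice, a ratio of 1.58, and the log2 fold change was 0.63 ± 0.12 (SE, adjusted p = 0.0276, limma). With any 1 mouse left out it did not pass, with adjusted p of 0.0556 to 0.101, while the log2 fold change stayed between 0.55 and 0.69. It also missed the FDR when the genes with an abundant partner on the other strand were removed from the test (adjusted p = 0.0583).

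Fzd4, a receptor prominent in endothelium, was the most abundant Wnt gene per kilobase of exon, at 612, 519 and 450 normalized CPM in the Wt mice and 656, 612 and 521 in mutant mice. The genotypes overlapped, with a log2 fold change of 0.18 ± 0.16 (SE, adjusted p = 0.495, limma). Lrp5, a co-receptor of canonical signalling, came next among the receptors, at 125, 98.7 and 96.9 normalized CPM in the Wt mice and 112, 102 and 87.5 in mutant mice. It overlapped as well (log2 fold change -0.08 ± 0.14, adjusted p = 0.735, limma), and its direction turned to 0.03 without Wt mouse 1 and to 0.02 without mutant mouse 3. The related co-receptor Lrp6 differed as little, at 119 to 125 normalized CPM in the Wt mice and 120 to 138 in mutant mice. Fzd1, another Frizzled receptor, lay lower in each mutant mouse (25.3 to 32.1 normalized CPM) than in any Wt mouse (36.4 to 42.8), and its log2 fold change of -0.43 ± 0.12 (SE) did not pass the FDR (adjusted p = 0.0834, limma). The other 7 receptors, Fzd2, Fzd3, Fzd6, Fzd7, Fzd8, Fzd9 and Fzd10, had overlapping genotypes and log2 fold changes of -0.52 to 0.40.

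**Figure D4:**
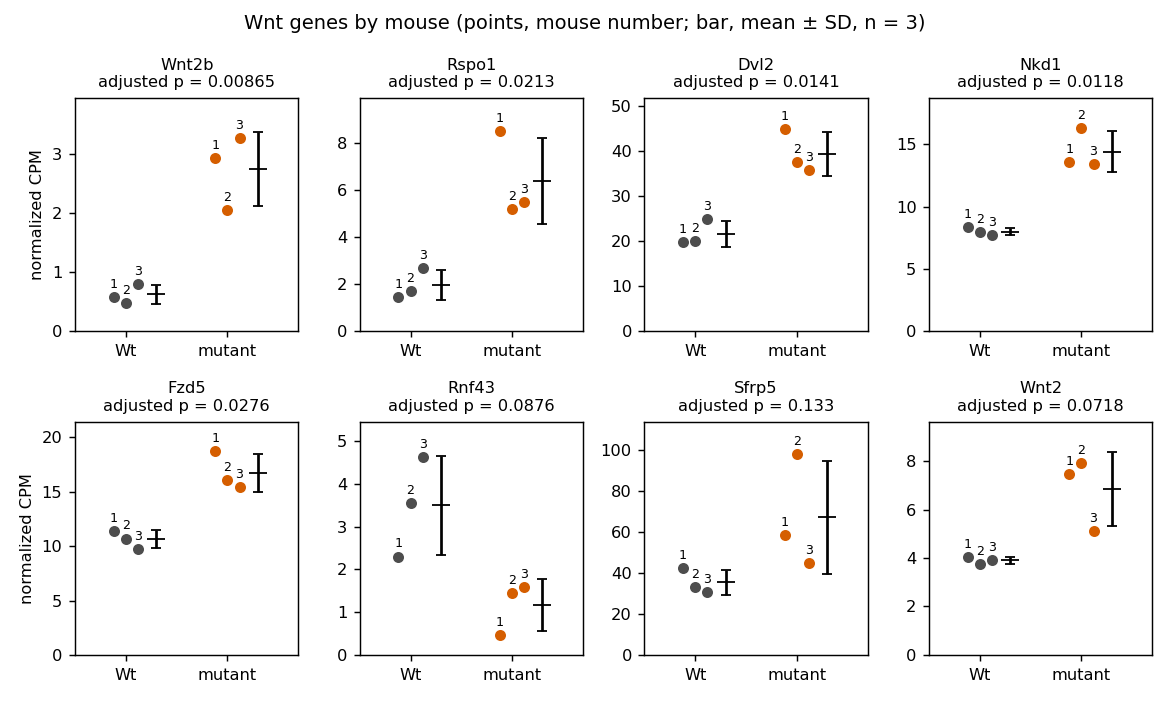
Normalized CPM of 8 Wnt genes in each of the 3 Wt mice (grey) and 3 mutant mice (orange), with the mouse number at each point and the mean ± SD beside it. In the top row and for Fzd5 the adjusted p is below 0.05, and for Rnf43, Sfrp5 and Wnt2 it is not, although the genotypes do not overlap in any of the 8 panels.

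In the beta-catenin pathway, 1 of 13 genes passed the FDR. Dvl2 (chr11:70000595-70012301, plus strand) encodes one of the Dishevelled proteins that pass the signal from Frizzled to the destruction complex. It was at 19.7, 20 and 24.9 normalized CPM in the Wt mice and at 44.9, 37.6 and 35.7 in mutant mice. All mutant mice thus exceeded all Wt mice, with means of 21.5 ± 2.89 (SD, n = 3) and 39.4 ± 4.87 (SD, n = 3) and a ratio of 1.83. The log2 fold change was 0.86 ± 0.13 (SE, adjusted p = 0.0141, limma), and it did not pass the FDR without Wt mouse 2 (0.81, adjusted p = 0.0709) or without mutant mouse 2 (0.89, adjusted p = 0.0594). Dvl1 and Dvl3, the other Dishevelled genes, were more abundant per kilobase of exon than Dvl2, and their log2 fold changes were -0.24 ± 0.09 and -0.17 ± 0.10 (SE, adjusted p = 0.171 and 0.341, limma).

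The 3′ part of Dvl2 shares 1151 exonic bases with Acadvl on the other strand, a gene of fatty acid oxidation that was 7.17 times as abundant as Dvl2. Without knowledge of strand in the counting, reads of Dvl2 and Acadvl cannot be told apart there, and the value of Dvl2 is uncertain to that extent. Acadvl itself was at 250, 198 and 203 normalized CPM in the Wt mice and at 270, 193 and 197 in mutant mice (log2 fold change 0.01 ± 0.16, adjusted p = 0.969, limma). Among the 250 genes tested whose partner on the other strand was 5 to 10 times as abundant, 27 (10.8%) were higher in mutant mice past the FDR, and among the 1192 with a partner at least 10 times as abundant, 576 (48.3%) were. The part of reads from the other strand in the difference of Dvl2 was not tested.

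Ctnnb1, which encodes beta-catenin, was the most abundant gene of this group per kilobase of exon. It was at 397, 372 and 361 normalized CPM in the Wt mice and at 413, 394 and 366 in mutant mice (log2 fold change 0.05 ± 0.10, adjusted p = 0.749, limma). The genotypes overlapped almost entirely at the RNA level, which says nothing of the protein, since beta-catenin is controlled by degradation. Of the destruction complex, Apc, Axin1 and Gsk3b overlapped between the genotypes, with log2 fold changes of -0.05 ± 0.08, -0.21 ± 0.11 and -0.08 ± 0.10 (SE). Gsk3a was at 84.6 to 85.1 normalized CPM in the Wt mice and at 70.6 to 78.3 in mutant mice, lower in each (log2 fold change -0.17 ± 0.07, adjusted p = 0.205, limma). Axin2, which is both part of the complex and a widely used target gene of canonical signalling, was at 25.6, 26.2 and 25 normalized CPM in the Wt mice and at 31.1, 31.6 and 27.8 in mutant mice. Each mutant mouse was above each Wt mouse, and the log2 fold change of 0.23 ± 0.09 (SE) did not pass the FDR (adjusted p = 0.166, limma).

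On the log2 scale, Tcf7 and Lef1 had the largest SEs of the 49 genes. Tcf7, encoding the factor TCF1 that is abundant in T cells, was at 37.9, 121 and 164 normalized CPM in the Wt mice and at 1.68, 61.3 and 83.4 in mutant mice. Lef1, a related factor of lymphocytes, was at 12.9, 52.4 and 61.6 in Wt mice and at 0.210, 23.2 and 32.5 in mutant mice. In both genes mutant mouse 1 was far below all others and the remaining mutant mice lay within the range of Wt mice, so that the log2 fold changes of -2.03 ± 1.42 and -2.10 ± 1.5 (SE) did not pass the FDR (adjusted p = 0.415 and 0.423, limma). Without mutant mouse 1 they were -0.35 and -0.34.

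All 5 T cell markers, Cd3e, Cd3d, Cd3g, Cd8a and Cd4, placed the 6 mice in the same order as Tcf7 and Lef1, from mutant mouse 1 as the lowest through Wt mouse 1, mutant mouse 2, mutant mouse 3 and Wt mouse 2 to Wt mouse 3. Cd3e, a chain of the T cell receptor complex, was at 20.4, 64.1 and 78.0 normalized CPM in the Wt mice and at 0.419, 32.3 and 43.0 in mutant mice. From Wt mouse 3 to mutant mouse 1 the level of Cd3e differed by a ratio of 186, that of Tcf7 by 98.0 and that of Lef1 by 294. The markers summed to 93.8 to 386 normalized CPM in the Wt mice and to 4.19 to 199 in mutant mice, with none at 0, and 0 of the 5 passed the FDR or an unadjusted p of 0.05 with limma, edgeR or DESeq2. Their part in the levels of Tcf7 and Lef1 was not tested. Tcf7l1 and Tcf7l2, the family members expressed in many tissues, did not have this order. They were at 30.4 to 40.6 and 33.3 to 45.6 normalized CPM over all 6 mice, with log2 fold changes of -0.12 ± 0.12 and -0.16 ± 0.14 (SE).

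**Figure D5:**
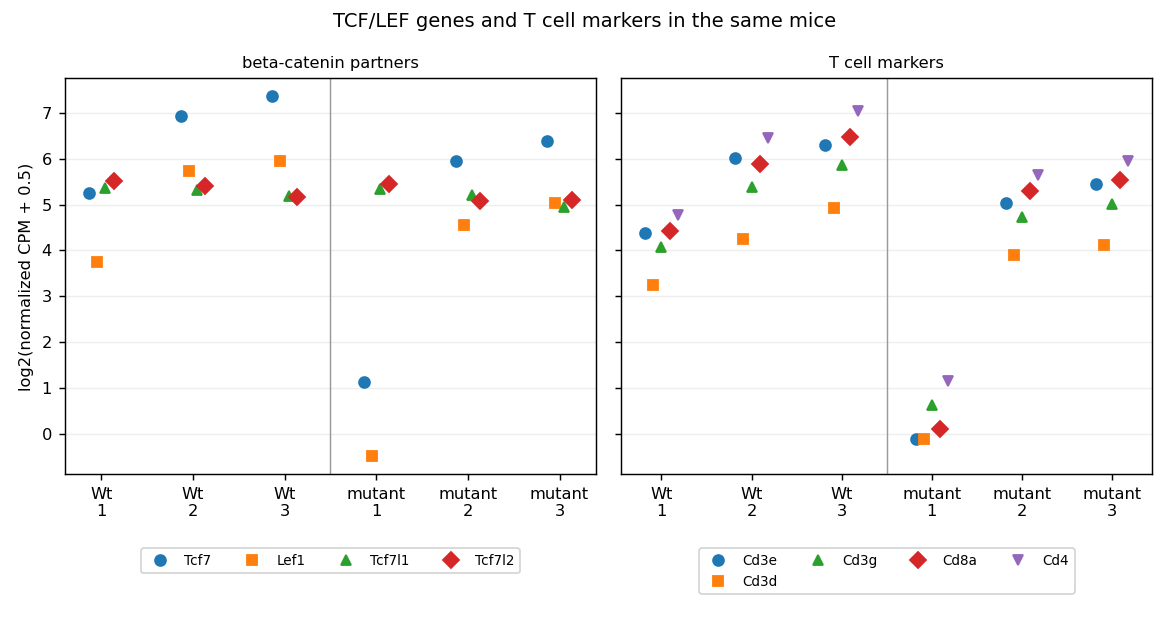
Levels in the same 6 mice of Tcf7, Lef1, Tcf7l1 and Tcf7l2 (left) and of 5 T cell markers (right), as log2(normalized CPM + 0.5). Tcf7 and Lef1 drop in mutant mouse 1 together with all 5 markers, whereas Tcf7l1 and Tcf7l2 stay between 30.4 and 45.6 normalized CPM.

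With limma, 0 of the 7 secreted antagonists passed the FDR and 1, Sfrp5, was below an unadjusted p of 0.05. With edgeR's quasi-likelihood test the count was also 0, and with DESeq2 it was 1, again Sfrp5. Sfrp5, a secreted Frizzled-related protein known from adipocytes, was the most abundant of them per kilobase of exon and the one whose genotypes did not overlap. It was at 42.1, 33.3 and 30.5 normalized CPM in the Wt mice and at 58.2, 98.0 and 44.9 in mutant mice. The mutant mice were all higher but spread widely, with mutant mouse 2 far above the other two, and means were 35.3 ± 6.10 and 67.0 ± 27.6 (SD, n = 3 each). The log2 fold change was 0.85 ± 0.29 (SE, adjusted p = 0.133, limma), and it was 0.54 without mutant mouse 2. Sfrp2 followed closely in level, at 52.3, 54.5 and 54.6 normalized CPM in the Wt mice and 67.3, 72.4 and 44.7 in mutant mice, so that the mutant mice lay on both sides of the Wt mice (adjusted p = 0.601, limma).

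The other 5 antagonists overlapped between the genotypes. Sfrp1 and Sfrp4, of the same family, had log2 fold changes of 0.49 ± 0.23 and 0.27 ± 0.16 (SE). The Dickkopf genes Dkk2 and Dkk3 had log2 fold changes of 0.02 ± 0.20 and 0.05 ± 0.20 (SE). Wif1, whose product binds Wnt ligands directly, was at 0.778 to 1.89 normalized CPM in the Wt mice and at 0.105 to 0.889 in mutant mice, and mutant mouse 1 was below the value of 3 reads. Its log2 fold change was -0.84 ± 0.39 (SE, adjusted p = 0.254, limma), and its mean was higher in Wt than in mutant mice by a ratio of 2.34. Without mutant mouse 1, which had 2 reads of Wif1, the log2 fold change was -0.45.

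In the R-spondin axis and among the feedback inhibitors, 2 of 7 genes passed the FDR, and Rspo1 was second to Wnt2b among the positive log2 fold changes. Rspo1 (chr4:124986430-125009099, plus strand), a secreted agonist that sensitises cells to Wnt, was at 1.47, 1.7 and 2.69 normalized CPM in the Wt mice, on 35, 35 and 64 reads. In mutant mice it was at 8.49, 5.21 and 5.47, on 162, 116 and 117 reads, so that the lowest mutant mouse was well above the highest Wt mouse. Means were 1.95 ± 0.651 (SD, n = 3) and 6.39 ± 1.82 (SD, n = 3), a ratio of 3.27, and the log2 fold change was 1.49 ± 0.26 (SE, adjusted p = 0.0213, limma). It did not pass the FDR without Wt mouse 1 (1.35, adjusted p = 0.0639), Wt mouse 2 (1.43, adjusted p = 0.0955), mutant mouse 2 (1.61, adjusted p = 0.0619) or mutant mouse 3 (1.58, adjusted p = 0.0567). Rspo3, a second R-spondin, was lower per kilobase of exon than Rspo1 and had overlapping genotypes (log2 fold change 0.33 ± 0.23, SE).

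Nkd1 (chr8:88521354-88594884, plus strand) encodes Naked cuticle 1, which binds Dishevelled and is a feedback inhibitor induced by canonical signalling. It was at 8.34, 7.93 and 7.74 normalized CPM in the Wt mice and at 13.6, 16.3 and 13.4 in mutant mice. The Wt mice were nearly alike and every mutant mouse was above them, with means of 8.0 ± 0.305 and 14.4 ± 1.63 (SD, n = 3 each) and a ratio of 1.80. The log2 fold change was 0.81 ± 0.12 (SE, adjusted p = 0.0118, limma), and it did not pass the FDR without Wt mouse 2 (0.80, adjusted p = 0.0612), Wt mouse 3 (0.78, adjusted p = 0.0537) or mutant mouse 2 (0.72, adjusted p = 0.0553). Its paralog Nkd2 overlapped between the genotypes, with a log2 fold change of -0.06 ± 0.15 (SE, adjusted p = 0.835, limma).

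The ligases that R-spondins counter had values in the other direction, without passing the FDR. Rnf43 was at 2.30, 3.55 and 4.63 normalized CPM in the Wt mice, on 55, 73 and 110 reads, and at 0.472, 1.44 and 1.59 in mutant mice, on 9, 32 and 34 reads. All mutant mice were below all Wt mice (log2 fold change -1.30 ± 0.36, adjusted p = 0.0876, limma). Within each genotype the mice followed the order of the summed T cell markers, whose part in the level of Rnf43 was not tested. Znrf3 was at 15.1, 19.5 and 19.3 normalized CPM in the Wt mice and at 12.2, 14.0 and 13.7 in mutant mice, again without overlap (log2 fold change -0.41 ± 0.13, adjusted p = 0.122, limma). Lgr4, the R-spondin receptor and the most abundant gene of this group per kilobase of exon, was at 31.8, 28.3 and 24.0 normalized CPM in the Wt mice and at 44.7, 34.2 and 31.2 in mutant mice. Mutant mouse 3 lay just below Wt mouse 1, and the log2 fold change was 0.38 ± 0.17 (SE, adjusted p = 0.232, limma).

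Beyond the 49 genes, 69 other genes of the pathway were looked up, of which 52 passed the filter on low values. Of these 52, 5 (9.62%) passed the FDR, 2 (3.85%) as higher and 3 as lower in mutant mice. Over all genes tested, the shares were close to these, at 8.11% in either direction and 5.50% as higher. Frzb, a secreted Frizzled-related antagonist, was at 0.628, 1.22 and 0.883 normalized CPM in the Wt mice and at 3.25, 3.01 and 4.21 in mutant mice (log2 fold change 1.51 ± 0.21, adjusted p = 0.0100, limma). Amer1, a scaffold of the destruction complex, was at 27.3, 29.8 and 27.9 normalized CPM in the Wt mice and at 39.4, 39.7 and 40.8 in mutant mice (log2 fold change 0.49 ± 0.08, adjusted p = 0.0133, limma). In both genes the genotypes were apart, and the difference of Frzb passed the FDR with any 1 mouse left out, with adjusted p of 0.0187 to 0.0476, whereas that of Amer1 did not without Wt mouse 3 (0.0617), mutant mouse 2 (0.0717) or mutant mouse 3 (0.0538).

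Tle3, a corepressor of TCF factors that is also known as a regulator of adipocyte genes, was at 146, 158 and 161 normalized CPM in the Wt mice and at 91.3, 106 and 110 in mutant mice (log2 fold change -0.60 ± 0.10, adjusted p = 0.0151, limma). Its adjusted p was 0.0763 without Wt mouse 2, 0.0674 without Wt mouse 3, 0.0630 without mutant mouse 2 and 0.0609 with scaling by library size only. Bcl9l, a coactivator of beta-catenin, was at 208, 201 and 188 normalized CPM in the Wt mice and at 161, 138 and 148 in mutant mice (log2 fold change -0.42 ± 0.09, adjusted p = 0.0436, limma). Celsr2, a cadherin of planar cell polarity, was at 91.0, 60.3 and 64.5 normalized CPM in the Wt mice and at 44.1, 25 and 30.2 in mutant mice (log2 fold change -1.13 ± 0.24, adjusted p = 0.0422, limma). Each of these 3 genes was lower in every mutant mouse than in any Wt mouse. Bcl9l and Celsr2 did not pass the FDR with a correction for GC content, where their log2 fold changes were -0.16 and -0.91 (adjusted p = 0.334 and 0.0863). They also missed it with edgeR's quasi-likelihood test (adjusted p = 0.0649 and 0.0533), with at least 10 reads in every mouse (0.0601 and 0.0565), without the genes that have an abundant partner on the other strand (0.0757 and 0.0760) and with any 1 mouse other than mutant mouse 1 left out (adjusted p of 0.0981 to 0.160 and of 0.0918 to 0.126). Bcl9l missed it with no filter on low counts as well (adjusted p = 0.0710).

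Of 10 target genes of canonical signalling in that list, 7 passed the filter and 0 passed the FDR with limma, while 2 were below an unadjusted p of 0.05, both lower in mutant mice. The count past the FDR was 0 with edgeR and with DESeq2 as well. Ccnd1, encoding cyclin D1, was at 54.3, 55.1 and 63.6 normalized CPM in the Wt mice and at 33.0, 44.2 and 48.7 in mutant mice (log2 fold change -0.47, adjusted p = 0.131, limma). Cd44, an adhesion receptor also abundant on leukocytes, was at 48.8, 66.3 and 70.3 normalized CPM in the Wt mice and at 23.3, 48.6 and 43.0 in mutant mice (log2 fold change -0.73, adjusted p = 0.190, limma). For both genes, as for Myc, the lowest of the 6 mice was mutant mouse 1, in which lymphocyte markers were near 0, and without it the log2 fold changes of Ccnd1, Cd44 and Myc were -0.31, -0.41 and -0.32. The part of lymphocytes in these levels was not tested. With the replicate block, Ccnd1, Cd44 and Myc passed the FDR (adjusted p = 0.0279, 0.0196 and 0.0191, limma), as did 4063 genes in all. With the block and GC correction together, they passed as well (adjusted p = 0.0397, 0.0240 and 0.0285, limma). Myc, Ccn4, Ccn5, Bambi and Twist1 had log2 fold changes of -0.66, 0.16, -0.53, 0.00 and -0.09. The 9 ligands outside the 49 genes all fell below the filter.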

How the data were processed

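RNA-seq libraries of inguinal fat from 3 mutant and 3 Wt mice were grouped by the genotype and mouse number in their labels. The authors deposited a signal for each gene that is normalized to CPM and then by a factor for each library, 0.962 to 1.109. The submitters' processing notes name Bowtie2 2.1.0, RSEM 1.2.15, edgeR and the build mm10, and the use of strand in counting is not given in the sources used here. Within 0.02 of a read, 100.0% of nonzero values gave whole numbers of reads, and the reads were recovered by division. Mice of a genotype differed by more than sampling noise (chi-square divided by its degrees of freedom, 19.6 to 66.1), so each counts as a sample.

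Genotypes were compared by limma 3.58.1 (R 4.3.3) on log2(value + 0.5), using its trend of the variance with the mean, over the 16868 genes that edgeR 4.0.16 kept by filterByExpr from the recovered reads. Alternatives were edgeR's quasi-likelihood test, DESeq2 1.42.0, other scalings, filters and pseudocounts, GC content in 20 bins (16859 genes with a value), a replicate block and the omission of each mouse. The limma step was also run on simulated counts, drawn independently for each mouse and without reads from the other strand. That run therefore does not bear on effects shared between mice or on such reads. With 3 mice against 3, an exact permutation test cannot give a p below 0.1. GENCODE M21 gave coordinates and exon lengths, and RefSeq promoters came from GRCm38.p6.

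The members and lists were chosen with earlier results of these data known. Values by mouse are given for members past the FDR, for those without overlap whose log2 fold change is at least 0.5 in size, and for the 2 most abundant of each role per kilobase of exon. Values by mouse of Axin2, Lef1, Znrf3, Ccnd1 and Cd44 were added after their values were seen. Other pathway genes are named when past the FDR. The marker lists of adipocytes, adipose progenitors, endothelium, macrophages, Schwann cells, B cells, skeletal muscle and epithelium had 0 genes each past the FDR with limma and with edgeR, 0 to 2 each below an unadjusted p of 0.05 with limma, and 0 or 1 each past the FDR with DESeq2.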

Additional observations from a re-analysis of the deposited data

How the results depend on the processing

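The 5 Wnt genes past the FDR (Wnt2b, Fzd5, Dvl2, Rspo1, Nkd1) were the same 5 with library size only, DESeq2's size factors, edgeR's quasi-likelihood test, no filter, a minimum of 10 reads, pseudocounts of 0.1 and 1, and GC correction. Their number was 8 of 49 at an FDR of 0.1 and 9 with DESeq2 (7 higher), which added Fzd1, Rnf43, Sfrp5 and Wnt2. It was 1 to 4 with 1 mouse left out, and only Wnt2b passed without Wt mouse 2 or without mutant mouse 2. With genes that overlap a gene at least 10 times as abundant on the other strand removed, an alternative chosen after the data were seen, it was 4, as Fzd5 no longer passed. Over all genes, 1368 passed, and the count was 2263 at an FDR of 0.1, 2118 with DESeq2, 598 with the minimum of 10 reads, 1168 with edgeR on the recovered reads, 344 without the overlapped genes and 554 to 1005 with 1 mouse left out. Of the 1368 calls 928 were higher. The share of higher calls was larger with library size only (1019 of 1284) and GC correction (875 of 1013), and smaller with the minimum of 10 reads (345 of 598), without the overlapped genes (177 of 344) and with the replicate block (1733 of 4063). The log2 fold change of Lrp5 was -0.16 to 0.03 with 1 mouse left out, reversing to 0.03 without Wt mouse 1 and to 0.02 without mutant mouse 3. The causes of these shifts were not tested, other than the smaller number of mice or genes by construction. At 10 to 19 reads in Wt mice, depth limits the size of the change of Wnt2b, whose log2 fold change was 1.2 with a pseudocount of 1 and 2.16 with edgeR.

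Mice of the genotypes share the numbers 1, 2 and 3. Deviations of same-numbered mice correlated at 0.69, 0.06 and 0.56, and those of the other pairs at -0.67 to 0.54. With 3 mice of each genotype, these values do not settle whether the numbers pair the mice, and the main fit treated them as unpaired. Wt mouse 1 and Wt mouse 3 correlated best with the mutant mouse of their own number, whereas Wt mouse 2 correlated best with mutant mouse 3 (0.33). With the number as a replicate block, 11 Wnt genes passed the FDR (7 higher), among them the same 5, and 4063 genes in all. With the block and GC correction together, 11 Wnt genes (9 higher) and 3248 genes passed.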
